A study of Homo sapiens with 8 samples.

Results

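Autophagy and lysosome genes were followed across 8 arrays of A549, a line of lung epithelial cells from a human adenocarcinoma. The set holds 40 genes, chosen by name with earlier results of these data known, out of 18377 genes with a probe set of their own. Of these, 17 belong to the autophagy core, 2 encode transcription factors of lysosomal genes, 12 encode lysosomal enzymes and lumenal proteins, 4 encode lysosomal membrane proteins and 5 encode subunits of the proton pump. All 40 had a value and passed the filter on low signal in every comparison. Each was read from 1 probe set, and where a gene had several, as ATG2B did, from that of highest mean signal.

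The study asked how an urban gas mixture acts on lung cells before and after sunlight has altered it. Cells at an air-liquid interface met the chamber atmosphere for 4 hr, either in the morning (primary pollutants, labelled as the fresh urban mix) or in the evening (photochemically altered, or PCA, pollutants, labelled as the aged urban mix). Time-matched control cells received humidified incubator air in the morning or in the evening, and all cells were kept for a further 9 hr before RNA was taken. Each of the 4 groups has 2 arrays. All cells share the line and the interface culture, and no genetic change is named for them. The arrays of a group share a single exposure, so every p-value below measures the spread between wells of that exposure and not between exposures, and mixture, time of day and exposure cannot be told apart. The epithelial and A549 markers reached the signal limit of 30 on every array (8 of 8 genes, mean log2 signals from 7.18 to 13.93). So did 4 of 6 fibroblast markers (means from 4.10 to 8.27 over all 6), 5 of 5 endothelial markers (5.41 to 5.95) and 4 of the 5 leukocyte markers with a value (4.38 to 9.58). The limit thus does not separate the cell types. Only LUM among the fibroblast markers and PTPRC among the leukocyte markers were below it on all 8 arrays.

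Autophagy encloses cytoplasm in a double membrane, the autophagosome, which then fuses with a lysosome. A kinase complex built on ULK1 starts the process, a lipid kinase complex with BECN1 and ATG14 marks the membrane, WIPI proteins and ATG2 proteins extend it, and ubiquitin-like proteins of the LC3 and GABARAP families are joined to its lipids. Inside the lysosome, hydrolases digest the cargo at the low pH that the vacuolar proton pump maintains. TFEB and TFE3 raise the transcription of many of these genes by binding an E-box, CACGTG, close to their transcript starts. In the lung epithelium, lysosome-related organelles of type II cells also store surfactant.

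Promoters of 8 members are shown first, since the responses below are set against the E-box they hold or lack. The sequences are from RefSeq on GRCh38.p14, each on its gene's own strand and ending at the base before the transcript start, with every CACGTG in capitals. The genes with the largest decreases, ATG2B (chr14:96363342-96363461, minus strand) and GABARAPL1 (chr12:10212757-10212876, plus strand), had no match in their windows.
ATG2B: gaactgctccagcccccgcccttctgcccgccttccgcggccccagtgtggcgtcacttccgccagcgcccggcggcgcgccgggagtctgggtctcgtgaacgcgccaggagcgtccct
GABARAPL1: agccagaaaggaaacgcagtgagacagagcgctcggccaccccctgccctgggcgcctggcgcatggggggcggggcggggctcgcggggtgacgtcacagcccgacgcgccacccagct
The windows of the protective protein CTSA (chr20:45891275-45891334, plus strand), the protease CTSD (chr11:1763928-1763987, minus strand) and the glycogen-degrading enzyme GAA (chr17:80101491-80101580, plus strand) held between 1 and 2 copies in the stretch printed.
CTSA: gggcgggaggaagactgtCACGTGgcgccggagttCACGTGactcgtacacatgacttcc
CTSD: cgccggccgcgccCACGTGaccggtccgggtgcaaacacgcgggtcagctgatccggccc
GAA: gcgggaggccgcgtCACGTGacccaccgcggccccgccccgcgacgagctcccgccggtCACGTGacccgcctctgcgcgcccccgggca
The membrane genes LAMP1 (chr13:113297039-113297238, plus strand) and MCOLN1 (chr19:7522564-7522623, plus strand) held 5 and 2 copies in the stretches printed, and the pump gene ATP6V0D1 (chr16:67481158-67481237, minus strand) held 1.
LAMP1: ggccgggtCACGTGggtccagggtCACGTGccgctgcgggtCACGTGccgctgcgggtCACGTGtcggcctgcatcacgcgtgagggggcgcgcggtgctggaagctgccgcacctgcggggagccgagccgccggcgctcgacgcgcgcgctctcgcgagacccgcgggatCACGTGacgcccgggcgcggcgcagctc
MCOLN1: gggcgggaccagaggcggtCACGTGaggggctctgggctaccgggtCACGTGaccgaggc
ATP6V0D1: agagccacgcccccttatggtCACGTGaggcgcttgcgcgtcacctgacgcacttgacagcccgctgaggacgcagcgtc

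After exposure to the PCA pollutants, the autophagy and lysosome genes were mostly below the evening control by modest amounts. Only GABARAPL1 and ATG2B fell, which here means a Benjamini-Hochberg adjusted p under 0.05 in limma together with a fold change of at least 1.5, and none rose. The study's own list for this mixture, from the same arrays, already held both genes as lower. Over all 17470 genes tested, 2.66% fell and 0.876% rose by the same limits. When the adjusted p alone was asked for, 20 members were below the control and 1, CTSL, was above it, against 14.1% and 5.72% of all genes. The log2 fold changes of the members ran from -0.76 to 0.45 with a median of -0.27. Of the 40, 35 were negative, against 50.3% of all genes tested. Quantile normalization turned ATG3, ATG4A, GLA and NPC1 positive, and centring each array on its median turned ATG5 and MCOLN1 negative. Over all genes tested the median was -0.0017, and over those with a signal of at least 100 it was -0.063. Cells with less of a transcript and a culture with fewer cells that hold it cannot be told apart in bulk RNA. The study measured more cell death, by release of lactate dehydrogenase, after the PCA pollutants than after the primary pollutants. The paper held its expression differences unlikely to be related to this, and its part here was not tested.

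The raw signals show how often the arrays separated. Both PCA arrays lay below both evening control arrays for 31 members and above them for 3, whereas 36.6% and 31.7% of all genes did so. Both PCA arrays were the lowest of all 8 arrays for 24 members, against 24.5% of all genes. The count at the adjusted p alone depends on every array of the comparison. Without evening control replicate 2 it dropped from 21 to 2 members (GABARAPL1 and ATG2B), without evening control replicate 1 to 7, and without either PCA array to 11. GABARAPL1 and ATG2B met both limits whichever of the 8 arrays was left out.

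**Figure D1:**
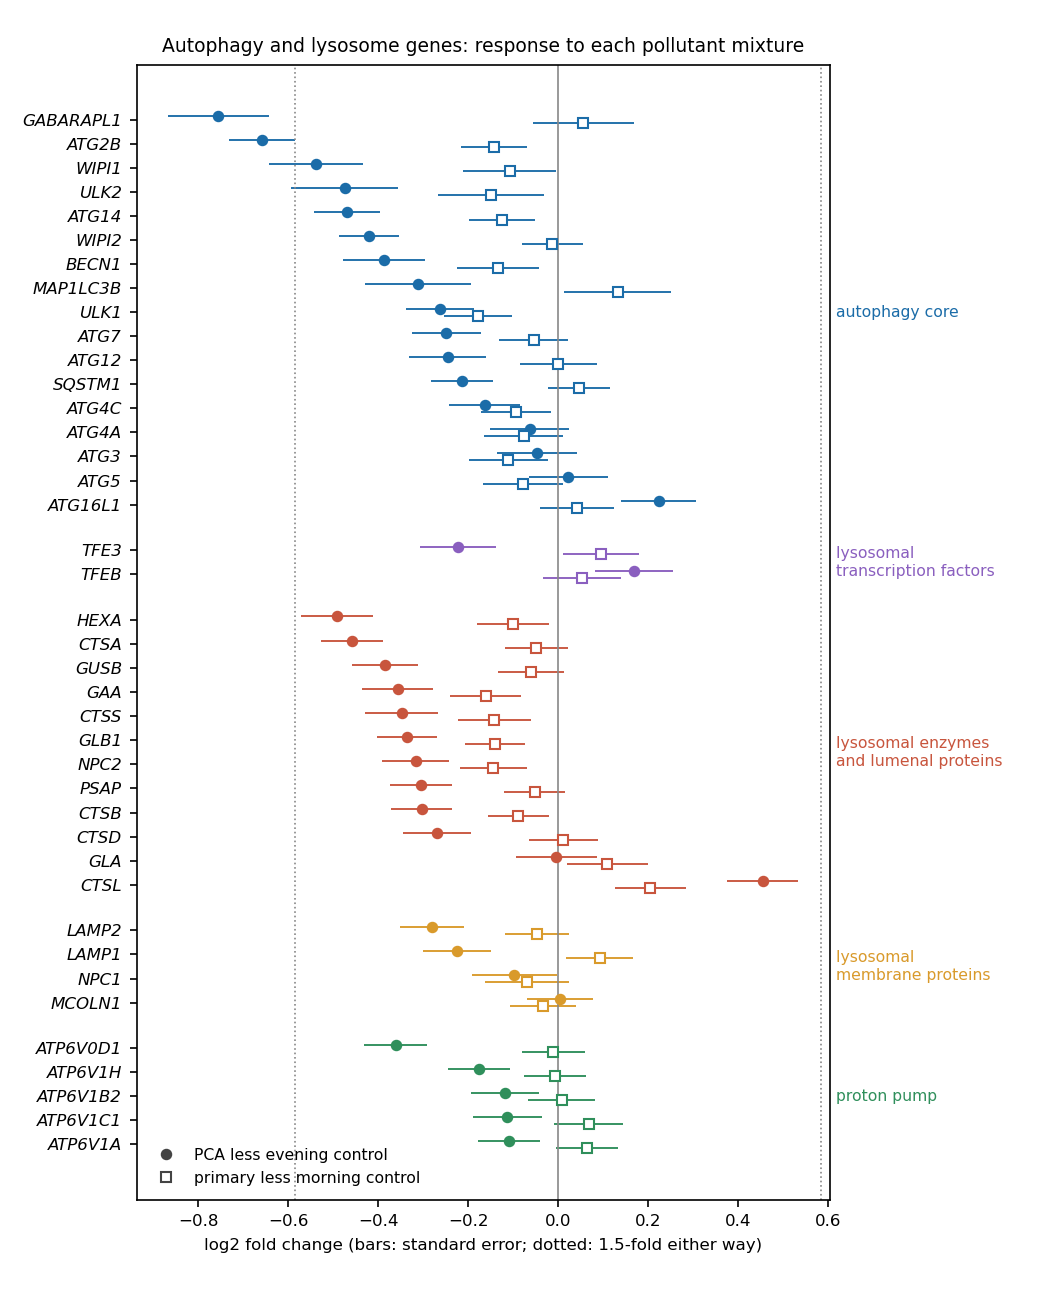
Log2 fold change of the 40 members after the PCA pollutants (filled circles, against the evening control) and the primary pollutants (open squares, against the morning control), with standard errors and 2 arrays per group. Dotted lines mark a 1.5-fold change. Only GABARAPL1 and ATG2B lie beyond the lower line, CTSL is the highest circle at 0.45, and the squares stay between -0.18 and 0.21.

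The autophagy core held both genes that fell. GABARAPL1 encodes a GABARAP family protein that is coupled to autophagosome membranes. Its log2 signal was 8.11 and 8.03 on the evening control arrays and 7.23 and 7.40 on the PCA arrays, beside 8.09 and 7.80 on the morning control and 8.04 and 7.95 on the primary pollutant arrays. The PCA arrays stood below the other 6, which overlapped one another. The log2 fold change was -0.76 (SE 0.112, adjusted p = 0.00577 by limma), so that the signal fell by 40.8%. GABARAPL3 is a near-identical copy with a probe set of its own, and how far the GABARAPL1 probes also detect it is uncertain.

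ATG2B encodes a lipid transfer protein that feeds the growing autophagosome membrane. Its log2 signal was 9.43 and 9.35 on the evening controls and 8.70 and 8.76 after the PCA pollutants, with 9.31 and 9.24 on the morning controls and 9.10 and 9.17 after the primary pollutants. Here too both PCA arrays were the lowest of the 8. The log2 fold change was -0.66 (SE 0.0735, adjusted p = 0.00245 by limma). The gene's second probe set gave -0.60. ATG2B was just inside the fold limit of 0.585 on the log2 scale, and WIPI1, at -0.54, was just outside it. Without evening control replicate 1 WIPI1 stood at -0.60, and without PCA replicate 2 at -0.63, beyond the fold limit. Without evening control replicate 2 it stood at -0.48, and without PCA replicate 1 at -0.45, farther inside that limit. Under quantile normalization it was also at -0.45, and its adjusted p by analysis of variance was 0.0619.

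Another 6 autophagy core genes were below the evening control at an adjusted p under 0.05 but by less than 1.5-fold. ATG14, which directs the BECN1 lipid kinase complex to autophagy, read 8.52 and 8.55 on the evening controls and 8.0 and 8.12 on the PCA arrays. That is a log2 fold change of -0.47 (SE 0.074, adjusted p = 0.00698 by limma), with no overlap between the groups. BECN1 itself changed by -0.39 (adjusted p = 0.025 by limma). The lipid-binding proteins WIPI1 and WIPI2, which recognise the mark made by that complex, changed by -0.54 and -0.42 (adjusted p = 0.0135 and 0.0074 by limma). WIPI2 read 8.90 and 8.91 on the evening controls and 8.51 and 8.46 on the PCA arrays, while the 4 morning arrays lay between 8.90 and 8.96. The starting kinases ULK2 and ULK1 changed by -0.47 and -0.26 (adjusted p = 0.0307 and 0.0466 by limma).

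The usual markers of autophagy did not pass the adjusted p as fitted here. MAP1LC3B encodes the LC3 protein that coats autophagosomes. It read 7.18 and 6.90 on the evening controls and 6.80 and 6.65 on the PCA arrays, a log2 fold change of -0.31 (SE 0.118, adjusted p = 0.0989 by limma) with a wide gap between the control arrays. A further probe set, shared with its near-identical copy MAP1LC3B2, was not used. SQSTM1 encodes p62, a receptor that carries ubiquitin-tagged cargo to LC3 and is itself digested. It read 11.97 and 11.89 on the evening controls and 11.72 on both PCA arrays, which gives -0.21 (SE 0.0687, adjusted p = 0.0644 by limma). Both PCA arrays of SQSTM1 were the lowest of the 8. By limma, the adjusted p of SQSTM1 was 0.0339 at a signal of at least 100 and 0.031 with centred arrays. With a trended and robust prior it was 0.00701 by limma, and by analysis of variance it was 0.0363. It was 0.124 by limma under quantile normalization and 0.104 with only the 4 arrays of the comparison. With the controls exchanged it was 0.101 by limma, and with the replicate block 0.0909. That of MAP1LC3B was 0.043 by limma with the replicate block. Both are read here as transcripts, and neither gives the flux of autophagy.

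Apart from GABARAPL1, which is itself coupled to membranes, no gene of the conjugation machinery passed the adjusted p as fitted here. ATG7, which activates the ubiquitin-like proteins, changed by -0.25 (adjusted p = 0.058 by limma), and ATG12, which is joined to ATG5, by -0.25 (adjusted p = 0.0794 by limma). The conjugating enzyme ATG3, the proteases ATG4A and ATG4C and the ATG12 partner ATG5 stood at -0.047, -0.063, -0.16 and 0.023, none of them past an unadjusted p of 0.05. The 95% intervals of these 4 genes lay within a 1.5-fold change in either direction. ATG16L1, which places the ATG12 and ATG5 complex on membranes, was above the control by 0.22 (adjusted p = 0.0932 by limma). ATG7 and ATG12 passed the adjusted p at a signal of at least 100, with centred arrays and with a trended and robust prior, and ATG16L1 passed it, above the control, under quantile normalization and with that prior. As fitted, ATG5 was the only other core gene with a positive fold change. Over the 17 core genes the median log2 fold change was -0.26, and 13 had both PCA arrays below both controls while 1 had both above.

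**Figure D2:**
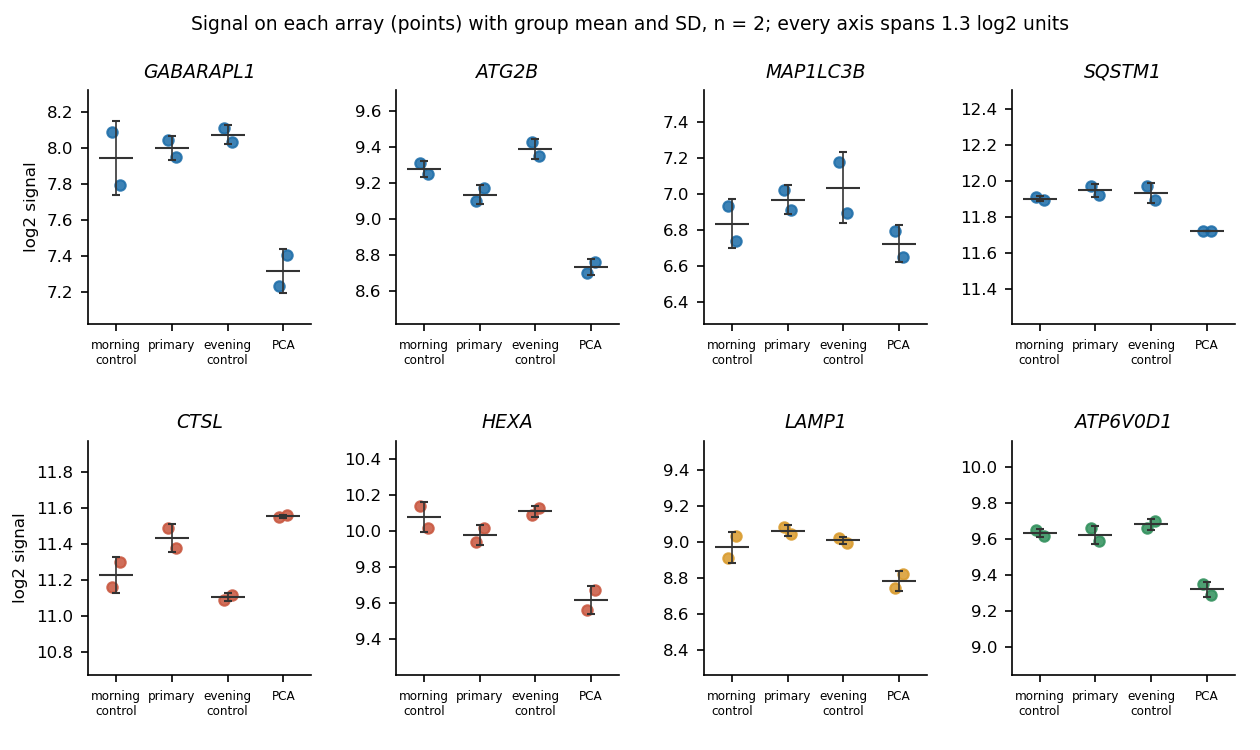
Log2 signal of 8 members on each of the 8 arrays (points) with the mean and SD of each group of 2, on axes of equal span. The PCA points of GABARAPL1 and ATG2B lie clear of the other 6 arrays, those of CTSL are the highest of the 8, and for MAP1LC3B they overlap the morning controls.

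Neither transcription factor gene was called. TFEB, which moves to the nucleus when lysosomes are stressed or nutrients are short, read 6.85 and 6.94 on the evening controls and 7.02 and 7.11 on the PCA arrays. The log2 fold change of 0.17 (SE 0.0872, adjusted p = 0.197 by limma) was positive, and the PCA arrays were the highest of the 8. TFE3, its paralogue, read 9.08 and 9.10 on the evening controls and 8.91 and 8.82 on the PCA arrays. Its log2 fold change was -0.22 (SE 0.0846, adjusted p = 0.0997 by limma), with both PCA arrays the lowest of the 8. Their activity depends on where the proteins are in the cell, which an array does not read.

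Most lysosomal enzymes and lumenal proteins were below the control. Of 12 genes, 10 were below the evening control at an adjusted p under 0.05, 1 was above it and GLA was level, and none met the 1.5-fold limit. Their median log2 fold change was -0.33. HEXA, a subunit of the hexosaminidase that degrades gangliosides, read 10.09 and 10.13 on the evening controls and 9.56 and 9.67 on the PCA arrays, a log2 fold change of -0.49 (SE 0.0799, adjusted p = 0.00766 by limma). CTSA, which protects other hydrolases in a complex, read 11.07 and 11.13 on the evening controls and 10.65 and 10.63 on the PCA arrays, a log2 fold change of -0.46 (SE 0.0694, adjusted p = 0.00615 by limma). In both, the PCA arrays were the lowest of the 8.

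GUSB, which cleaves glucuronic acid from glycosaminoglycans, changed by -0.39 (adjusted p = 0.0131 by limma). Pseudogenes of GUSB exist, and its reading is uncertain to the extent that they share probes. GAA, which degrades glycogen, changed by -0.36, the protease CTSS by -0.35, the beta-galactosidase GLB1 by -0.34, the cholesterol carrier NPC2 by -0.32, the saposin precursor PSAP by -0.30 and the protease CTSB by -0.30. The adjusted p-values of these 6 ran from 0.0148 to 0.0251 by limma. CTSD, the main aspartic protease of the lysosome, read 11.71 and 11.76 on the evening controls and 11.47 on both PCA arrays, a log2 fold change of -0.27 (SE 0.0765, adjusted p = 0.0452 by limma). GLA, an alpha-galactosidase, stood at -0.0038 with a 95% interval from -0.21 to 0.21.

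CTSL went the other way. This cysteine protease is made by many cells and can also be secreted. Its log2 signal was 11.09 and 11.12 on the evening controls and 11.55 and 11.56 on the PCA arrays, with 11.16 and 11.30 on the morning controls and 11.49 and 11.38 after the primary pollutants. The PCA arrays were the highest of the 8 and both evening controls the lowest. The log2 fold change was 0.45 (SE 0.0787, adjusted p = 0.00946 by limma), an increase of 37.0% in signal, under the 1.5-fold limit. Of the 40 members it was the only one above its control at the adjusted p, and no member had a larger positive fold change.

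Membrane proteins of the lysosome differed among themselves. LAMP2, which lines the lysosome and takes part in fusion with autophagosomes, read 10.55 and 10.52 on the evening controls and 10.24 and 10.27 on the PCA arrays. Its log2 fold change was -0.28 (SE 0.0705, adjusted p = 0.0312 by limma). LAMP1, its relative, read 9.02 and 8.99 against 8.74 and 8.82, a log2 fold change of -0.23 (SE 0.0755, adjusted p = 0.0711 by limma). NPC1, the cholesterol transporter that works with NPC2, read 9.27 and 9.39 against 9.30 and 9.16, so that its groups overlapped, with -0.098 (SE 0.0943, adjusted p = 0.471 by limma), and its sign changed under quantile normalization. The calcium channel gene MCOLN1 stood at 0.0039, with a 95% interval from -0.17 to 0.17. The median of the 4 genes, -0.16, became -0.055 under quantile normalization.

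The 5 proton pump members were all below the control by small amounts. ATP6V0D1, a subunit that links the membrane and cytosolic sectors of the pump, read 9.66 and 9.70 on the evening controls and 9.35 and 9.29 on the PCA arrays, a log2 fold change of -0.36 (SE 0.0697, adjusted p = 0.0134 by limma). ATP6V1H, a regulatory subunit of the cytosolic sector, read 9.19 and 9.26 against 9.04 and 9.06, which gives -0.18 (SE 0.0689, adjusted p = 0.107 by limma). ATP6V1A, the catalytic subunit, read 10.39 and 10.34 against 10.26 on both PCA arrays, a difference of -0.11 (SE 0.0683, adjusted p = 0.276 by limma). ATP6V1B2 and ATP6V1C1 stood at -0.12 and -0.11. All 5 had both PCA arrays lowest of the 8 and a 95% interval within a 1.5-fold change. Their median of -0.12 became -0.024 under quantile normalization and -0.21 against the morning control.

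**Figure D3:**
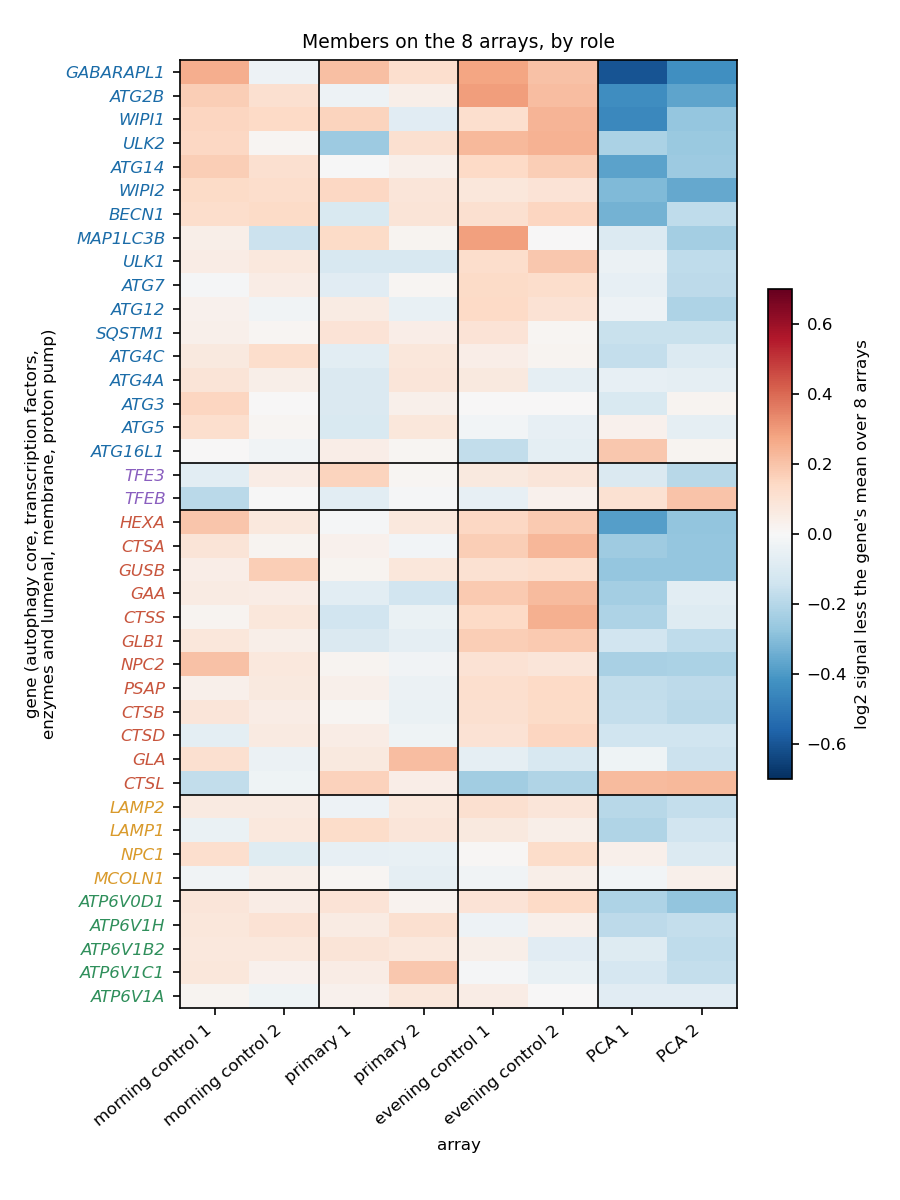
Log2 signal of each member on each of the 8 arrays less that gene's mean over all 8, blue below and red above, with genes grouped by role and arrays by group. The PCA columns are the lowest of the 8 for 24 members, all 5 proton pump genes among them, and the highest for CTSL and TFEB.

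The primary pollutants left these genes close to the morning control. No member was called, nor was any of the 17381 genes tested (0%). By its own limits, the study did list genes changed by this mixture. Over all genes, a trended and robust prior called 5 higher and 1 lower, and unadjusted analysis of variance 9 higher and 5 lower. At an unadjusted p under 0.05, 1 member was below the control and 1 above it, against 7.96% of all genes in either direction, and the smallest adjusted p was 0.525 by limma. Analysis of variance called no member either, with or without adjustment. The log2 fold changes ran from -0.18 to 0.21 around a median of -0.050, and all 40 intervals at 95% lay within a 1.5-fold change. Both primary arrays were below both morning controls for 10 members and above them for 5, where 21.7% and 17% of all genes did so.

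The members at either end were ULK1 and CTSL. ULK1 read 8.30 and 8.32 on the morning controls and 8.13 on both primary arrays, a log2 fold change of -0.18 (SE 0.0754, adjusted p = 0.572 by limma). On the evening controls it read 8.37 and 8.43, and on the PCA arrays 8.20 and 8.07. CTSL stood 0.21 above the morning control (SE 0.0786, adjusted p = 0.525 by limma). Its primary arrays, like its PCA arrays, both exceeded their controls. GABARAPL1 and ATG2B were at 0.056 and -0.14 after the primary pollutants.

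Whether the mixtures differed was tested as the PCA response less the primary response. No member met both limits, where 0.439% of all genes did, and 16 were lower at an unadjusted p under 0.05, against 11.4% of all genes, with none higher. The median difference was -0.21. The difference for GABARAPL1 was -0.81 (SE 0.159, adjusted p = 0.0776 by limma). Under settings that kept only signals of at least 100, or let the spread follow the signal, its adjusted p was 0.0309 and 0.00999 by limma, and otherwise it ranged from 0.0604 to 0.243. ATG2B differed by -0.52 (adjusted p = 0.0812 by limma), CTSA by -0.41 (adjusted p = 0.108 by limma) and WIPI2 by -0.41 (adjusted p = 0.104 by limma). For CTSL the difference was 0.25, with a 95% interval from -0.0098 to 0.51.

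The control groups bear on what time of day and handling moved without pollutants. Evening less morning control, no member was called, nor any of 17310 genes (0%), and none of the 40 passed an unadjusted p of 0.05, against 5.08% of all genes. The differences ran from -0.13 to 0.20 around a median of 0.035. Against the morning control in place of its own, the PCA response kept GABARAPL1 beyond both limits, while ATG2B stood at -0.55, short of the fold limit.

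Other genes of these pathways were taken from longer lists, 124 genes in all, of which 113 were tested. In this wider set 10 fell after the PCA pollutants and none rose, and 39 were below and 2 above the control at the adjusted p alone. Over all genes tested, 2.66% fell and 0.876% rose, and 14.1% and 5.72% were below and above at the adjusted p alone. The median of the wider set was -0.21. All 10 that fell were already listed as lower after the PCA pollutants in the study's own tables, EPG5 under an earlier symbol. Those tables come from the same arrays and were known when the lists were made. The count is therefore not independent evidence of a direction.

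Autophagy supplied 6 of the 10. TP53INP1, a stress-induced protein that binds the LC3 family, changed by -1.42 (adjusted p = 0.000633 by limma). The cargo receptors BNIP3L, for mitochondria, and NBR1, a relative of SQSTM1, changed by -0.64 and -0.63. EPG5 and STX17, which act when autophagosomes fuse with lysosomes, changed by -0.64 and -0.59, and ZFYVE1, a lipid-binding protein of the sites where autophagosomes form, by -0.62. The adjusted p-values of these 5 lay between 0.00245 and 0.00516 by limma. TP53INP1 was also the only gene of the pathway lists called in the PCA response less the primary response, at -1.09 (adjusted p = 0.023 by limma). When any 1 of the 8 arrays was left out, no gene of the whole table was called lower in that difference.

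The lysosome supplied the other 4 of the 10. The sphingomyelinase SMPD1 changed by -0.93 and the mannosidase MANBA by -0.63. The channel TPCN1 and the nucleoside transporter SLC29A3, both of the lysosomal membrane, changed by -0.90 and -0.60. These 4 had adjusted p-values from 0.00104 to 0.00442 by limma. None of the 16 further proton pump genes tested was called, and their median was -0.10. Of these 16, 12 were negative and 4 positive, and at the adjusted p alone 1 was below the control and 1 above it. In the primary pollutants these 10 genes stood between -0.42 and -0.063, with none called.

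**Figure D4:**
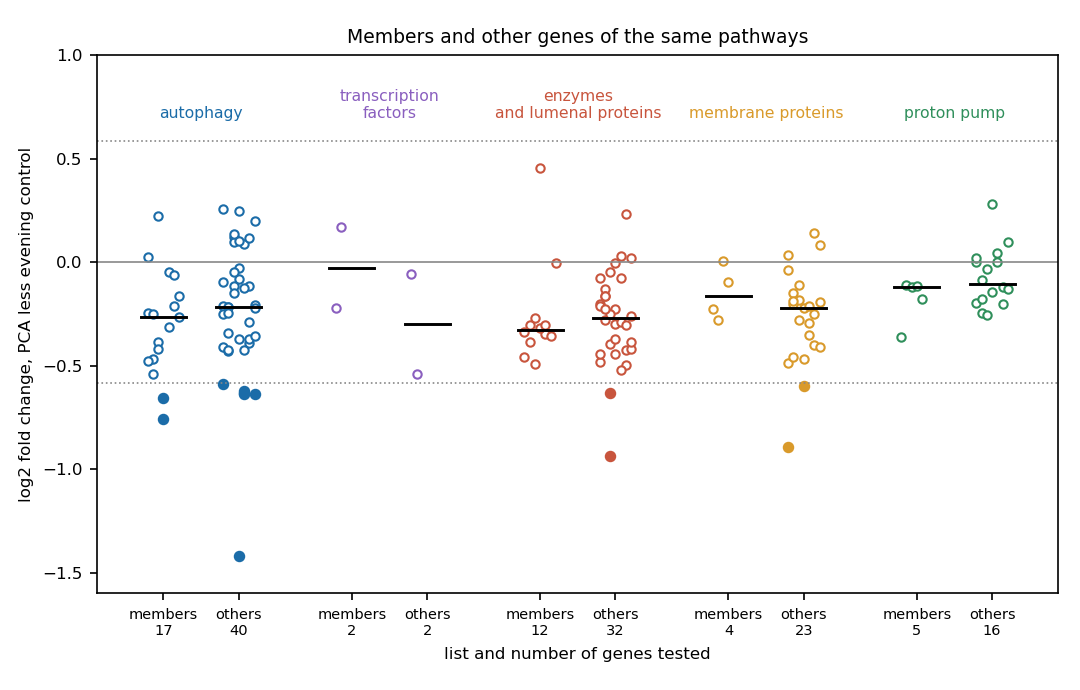
Log2 fold change after the PCA pollutants of the 40 members and of 113 other genes of the same pathways, by role. Filled points were called (12 in all, each lower), bars are medians, and dotted lines mark 1.5-fold. The proton pump columns hold no called gene, and the lowest point is TP53INP1 at -1.42.

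The E-box was counted in promoter windows from 250 bases before to 50 bases after each transcript start, on both strands. RefSeq windows were matched for 31 members, and 9 have no entry (HEXA, CTSB, CTSS, PSAP, LAMP2, ATP6V1A, ATP6V1B2, ATP6V1C1 and ATP6V1H). CACGTG stood in the windows of 8 of 31 members (25.8%) and of 1555 of 14210 genes (10.9%). The longer TCACGTGA, which contains it, stood in 6 of 31 members (19.4%) and 244 genes (1.72%). A match describes the letters and is no proof of a bound site.

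Responses to the PCA pollutants were set side by side for members with and without the E-box, with no test. The 8 with CACGTG (ATG3, ATG14, CTSA, CTSD, GAA, LAMP1, MCOLN1 and ATP6V0D1) had a median log2 fold change of -0.31, from -0.47 to 0.0039, and 5 were below the control at the adjusted p. The 23 without it had a median of -0.25, from -0.76 to 0.45, and 10 were below the control at the adjusted p. LAMP1, with the most copies, stood at -0.23, and MCOLN1, with 2 copies in the stretch shown, at 0.0039. GABARAPL1 and ATG2B, whose decreases were the largest, and CTSL, the highest member, had none.

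**Figure D5:**
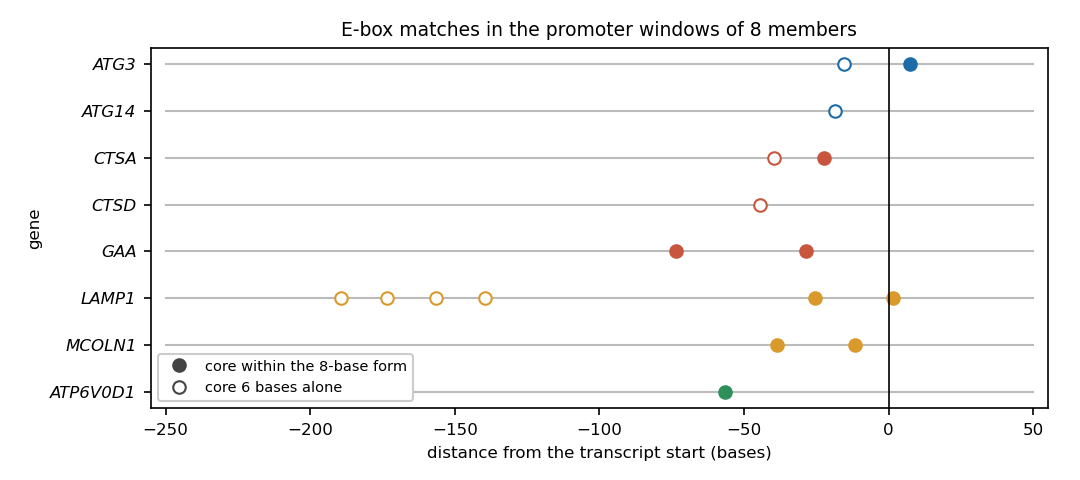
Positions of CACGTG in the promoter windows of the 8 members that hold it, in bases from the transcript start, with filled points where it lies within the 8-base form. Grey lines show the window searched. Apart from 4 matches of LAMP1 farther upstream, the matches start between -76 and 5.

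Other transcripts moved in the same arrays. The epithelial adhesion gene CDH1, a marker of these cells, read 10.35 on both evening controls and 9.29 and 9.19 on the PCA arrays, a log2 fold change of -1.11 (adjusted p = 0.000665 by limma). The other 7 epithelial and A549 markers were not called, and KRT7 was above the control at the adjusted p alone, by 0.34 (adjusted p = 0.0309 by limma). In the PCA response less the primary response, 1 of the 8 epithelial and A549 markers was called, lower. Of 5 fibroblast markers tested none was called, while COL1A2 and DCN were above the control by 0.28 and 0.42 and COL1A1 was below it by a log2 fold change of -0.37 (adjusted p = 0.046, 0.0361 and 0.0156 by limma). The 5 endothelial markers stood between 0.054 and 0.30 and the 4 leukocyte markers tested between -0.13 and 0.17, none past the adjusted p. The part of what moved these markers in the decreases of autophagy and lysosome genes was not tested.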

How the data were processed

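RNA from the 8 samples had been read on Human Gene 1.0 ST arrays. The authors deposited log2 signals after robust multichip average normalization, and the submitters' processing notes name Partek 6.4. They were used as deposited, with array medians from 6.93 to 7.03. Of 28869 probe sets, 19310 carry 1 gene symbol in the platform annotation, and a check through RefSeq changed none of these symbols. Probe sets with a signal of at least 30 on at least 1 array of a comparison were kept. The 4 group means were estimated from all 8 arrays with lmFit and eBayes (limma 3.58.1, R 4.3.3), with 4 residual degrees of freedom, and p-values were adjusted by Benjamini-Hochberg over all probe sets kept. Calls needed an adjusted p under 0.05 and a change of 1.5-fold or more. The study set the same fold limit, with an analysis of variance p and Storey's q-value both under 0.05. The fit was tested on simulated data. The number of arrays limits the precision.

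Members given in full were those called, the 3 of each role with the smallest p for the PCA pollutants, the 1 with the smallest p for the primary pollutants, and SQSTM1, MAP1LC3B, TFEB, LAMP1 and CTSD. WIPI2 was added after its values were seen. The members and all lists were chosen with earlier results of these data known. Alternatives covered the filter, normalization, arrays fitted, spread, test, fold limit, gene summary, replicate block, controls and each array left out. Plots were drawn with matplotlib 3.10.9.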

Additional observations from a re-analysis of the deposited data

How the results depend on the processing

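Among the members given in full, 339 values for the PCA pollutants under the alternative settings kept their direction and their call or lack of one. Another 2 lost the call and 1 changed sign. The adjusted p alone was not part of this count, and with a trended and robust prior 28 members passed it in place of 21. ATG2B lost its call under quantile normalization (-0.55) and with the controls exchanged (-0.55), short of the fold limit in both, and NPC1 turned to 0.0047 under quantile normalization. The count of members called after the PCA pollutants, 2, became 1 (GABARAPL1) under quantile normalization and with the controls exchanged, 3 with arrays centred on their medians (WIPI1 added, at -0.60, adjusted p = 0.00566 by limma), and 21 without the fold limit. Members past the adjusted p alone, an alternative chosen after seeing the data, numbered 12 under quantile normalization and from 2 to 21 with 1 array left out. For the other pathway genes, the count of 10 became 6 under quantile normalization, 6 with the controls exchanged and 41 without the fold limit. In the PCA response less the primary response, 1 member (GABARAPL1) was called at a signal of at least 100, with a trended and robust prior, and by unadjusted analysis of variance (p = 0.0107, not an exact test).

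The median log2 fold changes by role moved as follows. With arrays centred on their medians they were -0.32 for the autophagy core, -0.087 for the transcription factors, -0.39 for the enzymes and lumenal proteins, -0.22 for the membrane proteins and -0.18 for the proton pump. Under quantile normalization they were -0.19 for the autophagy core, -0.25 for the enzymes and lumenal proteins, -0.055 for the membrane proteins and -0.024 for the proton pump. With the controls exchanged they were -0.18, 0.056, -0.22, -0.12 and -0.21 in the order of the first list, so that the transcription factors changed sign. With 1 array left out, the autophagy core ranged from -0.33 to -0.21, the membrane proteins from -0.19 to -0.14 and the proton pump from -0.16 to -0.093. Centring changed the calls over all genes from 153 higher and 464 lower to 104 higher and 669 lower, and the cause was not tested for any of these shifts.

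Replicate numbers did not pair the arrays, since the deviations of same-numbered arrays correlated between -0.124 and 0.0545. With the replicate block, 2 members were called after the PCA pollutants, as without it. At the adjusted p alone the block gave 19 members in place of 21: ULK1, CTSD and LAMP2 lost it (adjusted p = 0.0728, 0.07 and 0.0514 by limma) and MAP1LC3B gained it (adjusted p = 0.043 by limma). With 2 arrays per group of 1 exposure, the spread between exposures is unknown, and changes under 1.5-fold were not called whatever their p.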

Other observations

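Genes that act upstream of the lysosome were looked at in lists chosen after values of the members had been seen. Of 12 genes tested that deliver enzymes to the lysosome, none was called after the PCA pollutants in limma. All 12 had negative log2 fold changes, as did 50.3% of all genes. At the adjusted p alone 6 were below the evening control, where 14.1% of all genes were. The mannose 6-phosphate receptor IGF2R, which sorts new hydrolases, stood at -0.46 (adjusted p = 0.0073 by limma), the adaptor GGA2 at -0.44 and GNPTAB, whose product starts the mannose 6-phosphate tag, at -0.44. The median was -0.26.

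Of 13 genes that sense nutrients at the lysosomal surface, FNIP1 fell, with a log2 fold change of -0.88 (adjusted p = 0.00463 by limma), and 8 were below the control at the adjusted p alone, where 2.66% of all genes fell and 14.1% were below at the adjusted p alone. FNIP1 partners folliculin, which acts on the RRAG GTPases. The GTPase genes RRAGB and RRAGC stood at -0.39 and -0.36, MTOR, the kinase they recruit, at -0.31, and TSC2, which restrains it, at -0.42. The median was -0.31. In the PCA response less the primary response no gene of either list was called.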
